A study of Mus musculus with 10 samples.

Results

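The genes of the desmosome were followed in bladder RNA of wild-type mice and of mice lacking one of a pair of secreted proteoglycans, osteomodulin (OMD) and PRELP. The 10 genes were taken by name out of 55536 genes in the count tables, and all 10 carried a row in every library. They were *Dsp*, *Jup*, *Pkp1*, *Pkp2*, *Pkp3*, *Dsg2*, *Dsg3*, *Dsc2*, *Dsc3* and *Perp*. The 4 cadherin genes lie in one cluster on chromosome 18 (19960930 to 20604521, GRCm38), and the others on chromosomes 13 (*Dsp*), 11 (*Jup*), 1 (*Pkp1*), 16 (*Pkp2*), 7 (*Pkp3*) and 10 (*Perp*). The bulk RNA-seq libraries came from bladder tissue of C57BL/6 mice and fell into 4 *WT*, 3 *OMD*-/- and 3 *PRELP*-/- libraries, each labelled as 1 mouse bladder sample. The study's own text speaks of isolated bladder epithelia and of other group sizes, and the labels of the libraries were followed here. Both knockouts were constitutive and replaced the coding exons by a β-galactosidase gene under the promoter of the deleted gene, so every cell of the animal lacked the proteoglycan from the start. Age and sex of these mice, and any pooling of animals, are not given in the sources used here. Y-linked transcripts, given below, differed between libraries of each group, so sex may not have been even within or between groups. The p-values measure only the spread between these libraries, which may be technical in part.

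The desmosome is the spot-like junction that ties the keratin filaments of one epithelial cell to those of its neighbour. Its desmogleins (*Dsg* genes) and desmocollins (*Dsc* genes) are cadherins that span the membrane and bind each other between cells. Their tails hold plakoglobin (*Jup*) and the plakophilins (*Pkp* genes), which in turn hold desmoplakin (*Dsp*), the plaque protein that reaches the keratins. PERP is a membrane protein of the desmosome. Simple and transitional epithelia rely on *Dsg2* and *Dsc2*, while *Dsg1*, *Dsg3*, *Dsc1* and *Dsc3* are known above all from stratified squamous epithelia. In the heart the same junction uses *Dsg2*, *Dsc2* and *Pkp2*. The study asked whether the proteoglycans maintain cell–cell adhesion in the bladder epithelium. Its evidence in knockout bladders included electron microscopy of tight junctions and staining of ZO-1 and E-cadherin, beside expression profiling. Desmosome transcripts concern another junction, and at the RNA level only.

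The libraries held between 20391437 and 46269079 counts, so that 3 counts, taken as the limit of detection, corresponded to 0.0598 to 0.170 counts per 1000000 counts of the library (CPM, here after TMM scaling of the 10 libraries, a correction for differences in RNA composition). The targeted genes followed their labels where they could be read. *Prelp* lay at 215 to 317 CPM in *WT* and at 1.84 to 4.20 CPM in *PRELP*-/-. It was higher in *OMD*-/-, at 772 to 826 CPM (log2 fold change 1.59, edgeR adjusted p = 1.3e-05). *Omd* was at 0 counts in the 3 *OMD*-/- libraries, but *WT* held only 0, 1, 8 and 12 counts, so this gene checks the *OMD*-/- label weakly. Bladder identity held in every library, with all 6 umbrella cell markers and all 13 epithelial reference genes (*Epcam*, *Cdh1*, *Krt8* and others) above 3 counts. Some libraries stood apart from others of their group. The 4 Y-linked genes summed to 189 and 163 CPM in *WT* replicates 1 and 2 and to 0 and 0.0443 CPM in *WT* replicates 3 and 4, and 9 smooth muscle markers summed to 355, 337, 1390 and 1225 CPM in the same order. *PRELP*-/- replicate 1 differed from its group with respect to gene length and held 474 CPM of 5 erythroid genes, against at most 69.6 CPM elsewhere. It also held 120 CPM of the Y-linked genes, against 18.8 and 18.5 CPM in replicates 2 and 3. *OMD*-/- replicate 1 stood at a chi-square distance per gene of 27.0 and 24.6 from replicates 2 and 3, against 3.10 between those. It held 18.1 CPM of the Y-linked genes against 0.806 and 0.731, and 844 CPM of the smooth muscle markers against 419 and 432. Its leukocyte markers summed to 324 CPM against 652 and 671, and its umbrella cell markers to 13485 CPM against 9910 and 10096. Calls that were lost or gained without these libraries are given beside the results or among the other settings tried.

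To compare genes with each other, CPM were divided by the exonic length of each gene (RPKM, the CPM per kilobase of exon). *Perp* was the most abundant of the 10 transcripts in *WT*, at 283 ± 19.1 RPKM (SD, n = 4). The plaque genes *Jup* and *Dsp* followed at 51.6 ± 8.91 and 38.3 ± 12.6 RPKM, and the desmoglein *Dsg2* at 30.5 ± 0.795 RPKM. The ranges of *Jup* and *Dsp* overlapped, as did those of *Dsp* and *Dsg2*, so the order of these neighbours cannot be read. *Pkp3* stood at 20.5 ± 1.47 RPKM, clear of *Dsg2* above and of the desmocollin *Dsc2* below, which was at 9.92 ± 0.906 RPKM. *Dsc2* and *Pkp1* overlapped, with *Pkp1* at 7.33 ± 2.14 RPKM, and *Pkp2* was lower at 3.78 ± 0.837 RPKM. The cadherins of stratified squamous epithelium were at the bottom. *Dsg3* was at 0.138 ± 0.0797 RPKM, and *Dsc3* held 0, 0, 2 and 4 counts, at or near the limit of detection. The bladder libraries thus carried *Dsg2* and *Dsc2* as their desmosomal cadherins, with RPKM of *Dsg2* 2.77 to 3.63 times those of *Dsc2* in *WT*. Of other cell types with desmosomes, 5 cardiomyocyte markers summed to at most 20.9 CPM in any library. The 7 markers of stratified squamous epithelium summed to 276 to 692 CPM, most of it from involucrin (*Ivl*, 535 to 641 CPM in *WT*), and each of the others was at 12.2 CPM or less. Their part in the members' values was not tested.

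The spread within *WT* differed greatly between the members. *Dsg2* was at 249, 246, 261 and 252 CPM in replicates 1 to 4, the tightest of the group. *Dsp* instead was at 476 and 475 CPM in replicates 1 and 2 and at 278 and 251 CPM in replicates 3 and 4. *Jup* and *Pkp1* were split in the same way, into 364 and 397 against 290 and 278 CPM for *Jup* and into 48.2 and 43.8 against 27.9 and 27.4 CPM for *Pkp1*. On the log2 scale the upper pair exceeded the lower by 0.85 for *Dsp*, 0.42 for *Jup* and 0.73 for *Pkp1*. *Pkp2* went the other way by 0.46, with 18.9 and 15.1 against 21.1 and 25.9 CPM, while *Pkp3*, *Dsg2* and *Perp* differed by no more than 0.11 between the pairs and *Dsc2* by 0.20. *Dsg3*, at few counts, had the widest gap of the 9 members tested below, with 0.579 and 0.524 CPM in replicates 1 and 2 and 1.02 and 1.73 CPM in replicates 3 and 4, a difference of -1.16. These are the same pairs that differed in Y-linked and smooth muscle transcripts. Basal urothelium markers summed to 3096 and 3062 against 2378 and 2513 CPM, and endothelial markers to 393 and 400 against 194 and 177 CPM. Umbrella cell markers went the other way, at 7786 and 8017 against 9508 and 9210 CPM. Over all genes, the median log2 difference between the pairs went from -0.12 under 2 kb of exon to 0.16 at 8 kb or more. The part of these differences in the split of *Dsp*, *Jup*, *Pkp1*, *Pkp2* and *Dsg3* was not tested. With 2 libraries on each side they cannot be told apart.

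**Figure D1:**
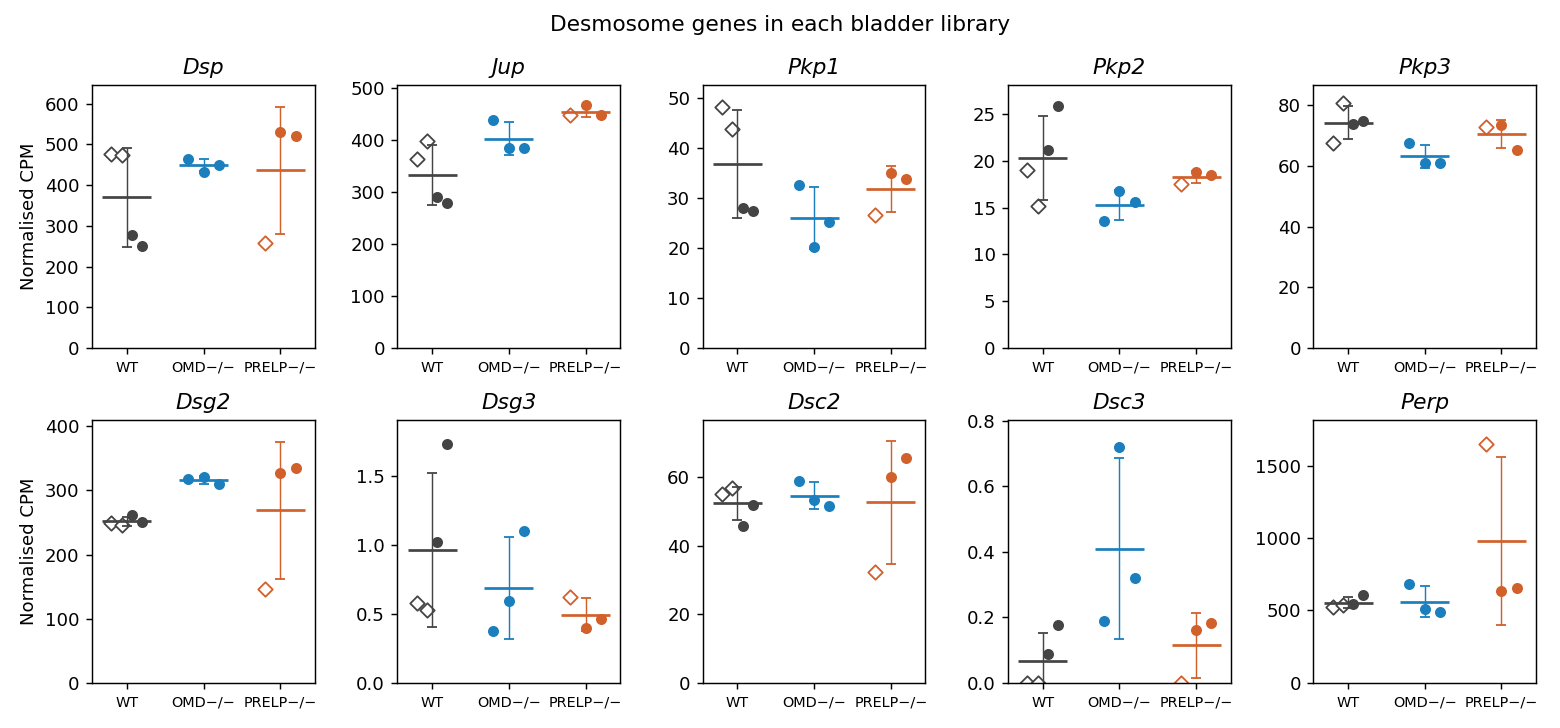
Normalised CPM of each desmosome gene (y axis, from 0, scale set per gene) in every library of the 3 groups (x axis), with a bar for the mean and an error bar for the SD. Open diamonds mark *WT* replicates 1 and 2 and *PRELP*-/- replicate 1. *Dsp* fell into a pair at 476 and 475 CPM and a pair at 278 and 251 CPM within *WT*, and *PRELP*-/- replicate 1 lay alone for *Dsg2*, *Dsc2*, *Dsp* and *Perp*.

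Among the 9 members with enough counts for a test, *Dsg2* was the only one past the threshold in *OMD*-/- bladder, and it rose. The fitted differences were positive for *Dsp*, *Jup*, *Dsc2* and *Perp* and negative for the 3 plakophilins and *Dsg3*, none past the threshold. The test was edgeR's quasi-likelihood test over 16647 genes with Benjamini-Hochberg adjustment, and the threshold an adjusted p under 0.05. Of the 9 members 1 passed it, where 29.4% of all genes tested did (14.3% as higher and 15.1% as lower), so a single call among 9 did not exceed the background. The median log2 fold change of the 9 members was 0.01, against 0.00 over all genes, with 5 above and 4 below 0, and 4 members had an unadjusted p under 0.05. Groups did not overlap for 2 of the 9 members, *Dsg2* and *Pkp3*, against 38.9% of all genes (19.2% with the knockout higher and 19.7% lower).

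*Dsg2*, the main desmoglein of this tissue, was at 318, 321 and 310 CPM in *OMD*-/- replicates 1 to 3. All 3 libraries were above all 4 *WT* libraries, whose highest value was 261 CPM. The log2 fold change was 0.33 (SE 0.074, 95% interval 0.16 to 0.49, edgeR adjusted p = 0.0078), a level 1.25 times that of *WT*. The call held with each library left out in turn (adjusted p 0.011 to 0.038) and against either *WT* pair alone, at 0.35 and 0.30 on the log2 scale. Without *OMD*-/- replicate 1 it was 0.34, and no other member was called then. The call did not hold when all 3 groups shared 1 estimate of spread (0.33, edgeR adjusted p = 0.39). The 13 epithelial reference genes, which leave out the desmosome members, summed to 7537 to 7931 CPM in *WT* and to 10552, 8401 and 8552 CPM in *OMD*-/- replicates 1 to 3. Most of the *WT* sum came from keratins, with *Krt7*, *Krt18*, *Krt19* and *Krt8* at means of 1975, 1574, 1049 and 899 CPM. Of the 13 reference genes, 12 were on the higher side, with a median log2 fold change of 0.22. *Cdh1*, *Krt18* and *Elf3* were called higher and *Grhl2* lower, where 29.4% of all genes were called. *Epcam* and *Spint1* had 0.02 and 0.00 on the log2 scale. Without *OMD*-/- replicate 1, 2 of 13 were called, where 25.5% of all genes were, and 8 of 13 were on the higher side. Relative to that sum, the log2 fold change of *Dsg2* was 0.10 (edgeR adjusted p = 0.51). In bulk tissue, more cells of a type and more RNA per cell cannot be told apart. The 8 fibroblast markers, all above 3 counts in every library, summed to 8495 to 9672 CPM in *WT* and 18092 to 21930 CPM in *OMD*-/-. Most of the *OMD*-/- sum was collagen transcripts, with *Col1a1*, *Col1a2* and *Col3a1* at means of 5903.6, 6283.1 and 4632.5 CPM. The fibroblast markers *Dcn*, *Lum* and *Dpt* were not called (0.33, 0.03 and -0.66 on the log2 scale). The 6 endothelial markers went from 177 to 400 CPM in *WT* to 462 to 546 CPM, and the 8 leukocyte markers from 302 to 353 CPM to 324 to 671 CPM. The part of these cell types in the values was not tested.

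The partner desmocollin did not move with *Dsg2* beyond the spread. *Dsc2* was at 59.0, 53.4 and 51.5 CPM in *OMD*-/-, within or just above the *WT* range of 45.9 to 56.7 CPM, and its log2 fold change was 0.06 (95% interval -0.15 to 0.26, edgeR adjusted p = 0.67). *Dsg2* RPKM were accordingly 3.44 to 3.85 times those of *Dsc2* in *OMD*-/-, overlapping *WT* at its upper end. Whether the *Dsg2* and *Dsc2* differences differ from each other was not tested. *Dsg3* was at 0.377, 0.594 and 1.10 CPM, within a *WT* spread of 0.524 to 1.73 CPM except for the first, and was not past the threshold (-0.45, 95% interval -1.61 to 0.70). *Dsc3* was too low for the main test, with 4, 17 and 7 counts in *OMD*-/-. Without the filter on low counts it was called higher by edgeR (log2 fold change 2.71, adjusted p = 0.046) and not by DESeq2 (2.76, adjusted p = 0.074). Its 3 *OMD*-/- values, 0.189, 0.721 and 0.320 CPM, lay above all *WT* values, of which the highest was 0.177 CPM.

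The plaque genes gave different answers by *WT* pair. *Dsp* was at 463, 433 and 450 CPM in *OMD*-/-, between the *WT* pairs, and its log2 fold change was 0.28 (SE 0.22, 95% interval -0.22 to 0.77, edgeR adjusted p = 0.37). Against *WT* replicates 3 and 4 alone it was 0.76 (edgeR adjusted p = 0.00020), and against replicates 1 and 2 alone it was -0.08 (edgeR adjusted p = 0.49). *Jup* was at 438, 383 and 384 CPM, with 0.27 over all *WT* (95% interval 0.00093 to 0.55, edgeR adjusted p = 0.12). Against replicates 3 and 4 it was 0.50 (edgeR adjusted p = 0.0026) and against replicates 1 and 2 it was 0.08 (edgeR adjusted p = 0.58). Leaving out *WT* replicate 2 alone was enough to bring *Jup* past the threshold (0.37, edgeR adjusted p = 0.044). The direction for *Dsp* and the call for *Jup* therefore depended on which wild-type libraries were used.

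The 3 plakophilins, the armadillo proteins of the plaque, were all on the lower side. *Pkp3*, the most abundant of them, was at 67.5, 61.0 and 60.9 CPM in *OMD*-/-. All 3 values were below all 4 *WT* values, although the closest were 67.5 and 67.7 CPM, and the log2 fold change was -0.23 (SE 0.085, 95% interval -0.42 to -0.05, edgeR adjusted p = 0.060). It was nearly the same against either *WT* pair, at -0.23 and -0.24, and passed the threshold without *WT* replicate 1 (-0.28, edgeR adjusted p = 0.042). *Pkp2* was at 13.6, 16.7 and 15.6 CPM, with -0.40 over all *WT* (95% interval -0.78 to -0.02, edgeR adjusted p = 0.10), -0.62 against replicates 3 and 4 and -0.16 against replicates 1 and 2. It passed without *WT* replicate 2 (-0.52, edgeR adjusted p = 0.022). *Pkp1* was at 32.6, 20.3 and 25.1 CPM, with -0.51 over all *WT* (95% interval -1.03 to 0.01, edgeR adjusted p = 0.13), -0.83 against replicates 1 and 2 (edgeR adjusted p = 0.0073) and -0.09 against replicates 3 and 4. Relative to the epithelial reference sum all 3 plakophilins were called lower in *OMD*-/-. They were at -0.76 for *Pkp1*, -0.63 for *Pkp2* and -0.47 for *Pkp3* (edgeR adjusted p = 0.016, 0.039 and 0.0067). No other member was called, so 3 of 9 members were, near the 30.9% of all genes called on that scaling. The reference sum was mostly keratin transcripts, so these values are relative to those more than to the amount of epithelium. *OMD*-/- replicate 1 had the highest reference sum, at 10552 CPM against 8401 and 8552 CPM, and its part in these calls was not tested.

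*Perp* was at 683, 510 and 488 CPM in *OMD*-/-, around the *WT* range of 521 to 607 CPM, and its log2 fold change was 0.01 (95% interval -0.25 to 0.27, edgeR adjusted p = 0.94). Replicate 1 alone was high, and without it the value was -0.14. Over all genes, the median log2 difference of replicate 1 from the mean of replicates 2 and 3 varied with exonic length. It went from 0.19 under 2 kb to -0.11 at 8 kb or more, and *Perp*, at 1.95 kb, was 0.45 higher. The part of gene length in the *Perp* value was not tested.

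**Figure D2:**
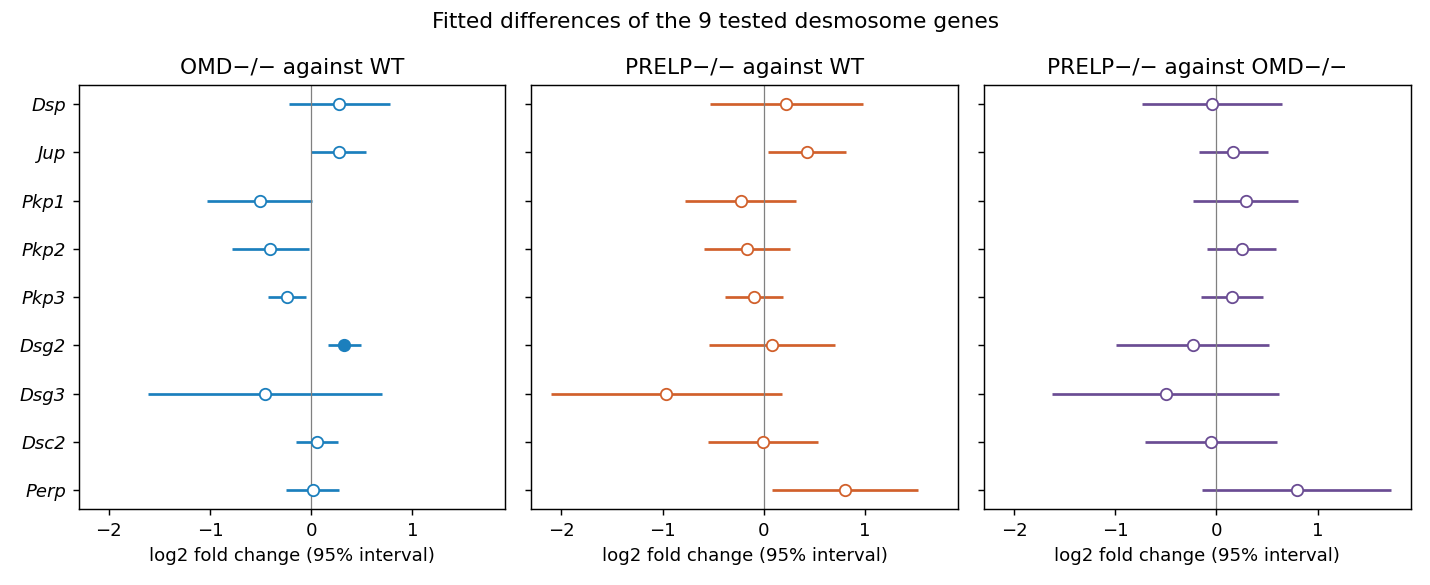
Fitted log2 fold change (x axis) of the 9 tested desmosome genes (rows) in the 3 comparisons (panels), with 95% intervals from the edgeR fits. Filled symbols mark an adjusted p under 0.05, which only *Dsg2* in *OMD*-/- against *WT* reached, at 0.33.

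No member passed the threshold in *PRELP*-/- bladder. *Jup* and *Perp* were above all *WT* libraries in all 3 knockout libraries, and *Dsg2*, *Dsc2* and *Dsp* were above all *WT* libraries in replicates 2 and 3 and low in replicate 1. The edgeR test ran over 16581 genes, 7.29% of which were called (1.40% as higher and 5.89% as lower). Of the 9 members tested 0 were called and 2, *Jup* and *Perp*, had an unadjusted p under 0.05; DESeq2 also called 0. limma-voom with sample quality weights called 5 of 9, where it called 42.0% of all genes. The median log2 fold change of the members was -0.01, against 0.02 over all genes, and groups did not overlap for 2 of 9 members, against 30.0% of all genes (13.6% higher and 16.4% lower). The *WT* libraries are those used for *OMD*-/-, so the 2 knockout comparisons are not independent.

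*PRELP*-/- replicate 1 set much of the spread. Its chi-square distance per gene to replicates 2 and 3 was 225 and 221, against 3.58 between those 2 libraries. Over all genes its log2 difference from their mean went with exonic length, from a median of 0.73 for genes under 2 kb to -0.70 for genes of 8 kb or more. The members followed this ladder in part. *Perp*, the shortest at 1.95 kb, was 1.35 higher in replicate 1, and *Dsg2* (8.27 kb) and *Dsp* (9.66 kb), the longest, were 1.18 and 1.03 lower. *Pkp3*, *Pkp2* and *Jup* were within 0.09 of the other replicates, and *Pkp1* was 0.37 lower. *Dsc2*, at 5.28 kb, was 0.96 lower, below the lower quartile of -0.52 for genes of 4 to 6 kb. By contrast, medians over bins of GC content went only from -0.06 to 0.10.

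**Figure D3:**
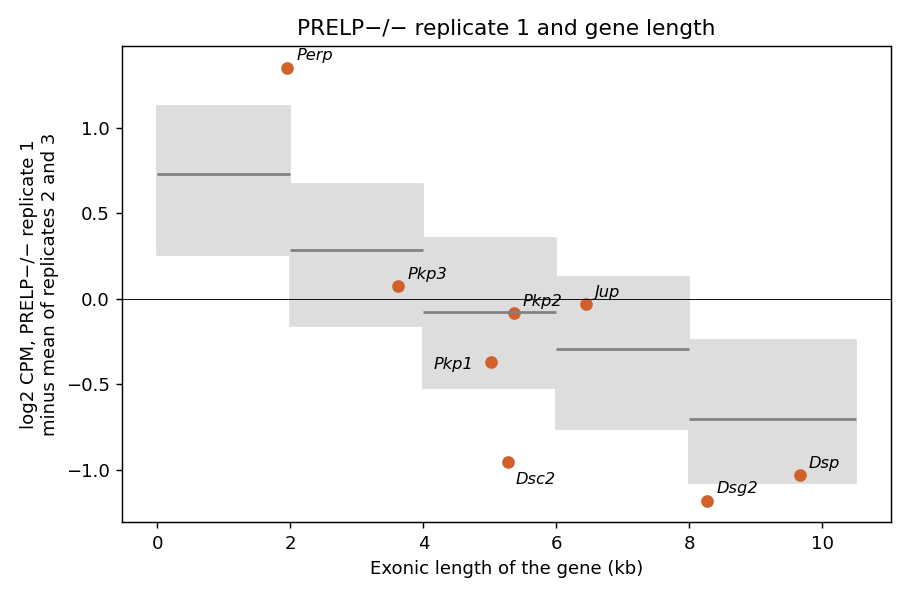
Log2 CPM of *PRELP*-/- replicate 1 minus the mean of replicates 2 and 3 (y axis) against exonic length in kb (x axis). Grey lines and boxes give the median and quartiles of all genes with a mean of at least 1 CPM per length bin, and points are the 8 desmosome genes of that level; *Perp* lay at 1.35 and *Dsg2* at -1.18.

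*Dsg2* was at 146, 326 and 335 CPM in *PRELP*-/- replicates 1 to 3, below all *WT* libraries in the first and above all of them in the others. The log2 fold change over all libraries was 0.08 (SE 0.27, 95% interval -0.54 to 0.70, edgeR adjusted p = 0.87). Without replicate 1 it was 0.40 (edgeR adjusted p = 0.0061), past the threshold in a fit that called 22.2% of all genes. Fits without replicate 1 rest on replicates 2 and 3, only 3.58 apart in chi-square per gene. Their p-values therefore measure a knockout spread between 2 close libraries, which may be technical in part. *Dsc2* was at 32.3, 60.1 and 65.5 CPM, the first below and the others above the *WT* range. It had -0.01 over all libraries (95% interval -0.55 to 0.54, edgeR adjusted p = 0.99) and 0.27 without replicate 1 (edgeR adjusted p = 0.084). *Dsg3* was at 0.625, 0.401 and 0.460 CPM, with -0.96 (95% interval -2.11 to 0.18, edgeR adjusted p = 0.26) and -1.12 without replicate 1 (edgeR adjusted p = 0.21), and *Dsc3* held 0, 4 and 4 counts.

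*Jup* was at 447, 467 and 448 CPM in *PRELP*-/-, all above the highest *WT* value of 397 CPM, and unlike the cadherins it did not set replicate 1 apart. The log2 fold change was 0.43 (SE 0.17, 95% interval 0.04 to 0.81, edgeR adjusted p = 0.15), and without replicate 1 it was 0.47 (edgeR adjusted p = 0.043). *Dsp* was at 257, 531 and 521 CPM, with 0.22 over all libraries (95% interval -0.53 to 0.98, edgeR adjusted p = 0.70) and 0.52 without replicate 1 (edgeR adjusted p = 0.17). With replicates 2 and 3 only, *Dsp* was 0.99 against *WT* replicates 3 and 4 and 0.14 against *WT* replicates 1 and 2, and *Jup* was 0.68 and 0.26 (edgeR adjusted p from 1.6e-09 to 0.045). These fits rest on 2 libraries a group, close to each other in *PRELP*-/-, and called 51.8% and 36.6% of all genes.

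The plakophilins lay within or just below the *WT* range. *Pkp1* was split within *WT*, into 48.2 and 43.8 against 27.9 and 27.4 CPM, and *PRELP*-/- replicates 2 and 3 lay between these pairs. *Pkp3* was at 72.9, 73.5 and 65.3 CPM (-0.09, 95% interval -0.38 to 0.19), *Pkp2* at 17.6, 18.8 and 18.5 CPM (-0.17, -0.59 to 0.26) and *Pkp1* at 26.6, 35.1 and 33.8 CPM (-0.23, -0.78 to 0.32). None passed the threshold (edgeR adjusted p = 0.67, 0.61 and 0.58). Without replicate 1 they were at -0.086, -0.11 and -0.088 in the same order, again short of it (edgeR adjusted p = 0.56, 0.73 and 0.82). *Perp* was at 1652, 637 and 658 CPM, with replicate 1 far above the others. Its log2 fold change was 0.80 (SE 0.32, 95% interval 0.08 to 1.52, edgeR adjusted p = 0.15) with that library and 0.24 (edgeR adjusted p = 0.079) without it.

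The epithelial reference genes summed to 12184, 9611 and 9242 CPM in *PRELP*-/- replicates 1 to 3, against 7537 to 7931 CPM in *WT*. Of the 13 genes 0 were called, where 7.29% of all genes were, with *Epcam* at 0.01 and *Grhl2* at -0.73 on the log2 scale. Without replicate 1, 4 were called higher, *Krt7*, *Krt18*, *Cdh1* and *Rab25*, against 22.2% of all genes. The reference sum was again mostly keratin transcripts. Relative to it, and without replicate 1, *Dsg2* was at 0.10 and *Jup* at 0.18 on the log2 scale (edgeR adjusted p = 0.32 and 0.33). *Dsp* was at 0.23 and *Perp* at -0.06 (edgeR adjusted p = 0.51 and 0.65). *Pkp3* was then called lower, at -0.38 (edgeR adjusted p = 0.013), as the only one of 9 members where 33.7% of all genes were called. Fibroblast markers summed to 10446 CPM in replicate 1 and to 19949 and 19542 CPM in replicates 2 and 3, and smooth muscle markers to 256 to 275 CPM, below all *WT* libraries. Their part in these values was not tested.

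**Figure D4:**
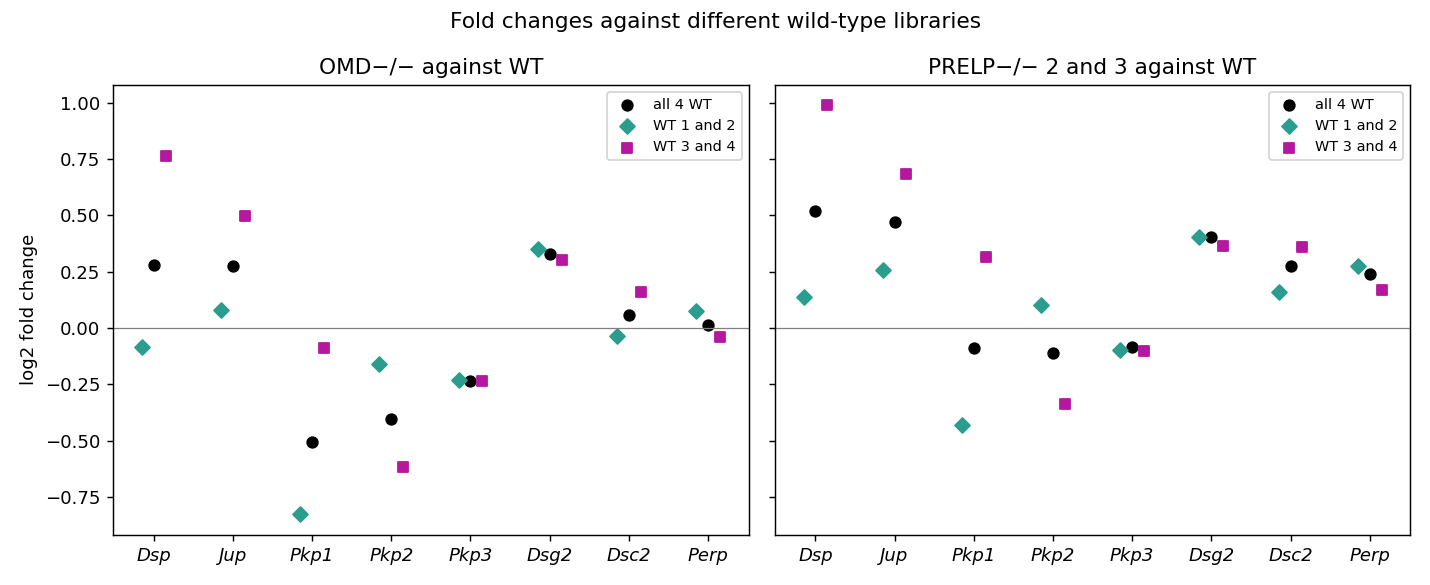
Log2 fold change (y axis) of 8 desmosome genes (x axis) against all 4 *WT* libraries (circles), *WT* replicates 1 and 2 (diamonds) and *WT* replicates 3 and 4 (squares), for *OMD*-/- (left) and *PRELP*-/- replicates 2 and 3 (right). *Dsg2* and *Pkp3* kept their place, at 0.35 and 0.30 for *Dsg2* in *OMD*-/-, while *Dsp* went from -0.08 to 0.76.

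No desmosome gene passed the edgeR threshold between *PRELP*-/- and *OMD*-/- bladder, and over 15805 genes 1, *Prelp* itself, was called (0.00633%). All 9 members tested also had an unadjusted p of 0.05 or more, and DESeq2 called 0 of them. limma-voom with sample quality weights called *Jup* and *Pkp1* higher in *PRELP*-/- (0.24 and 0.56 on the log2 scale, adjusted p = 0.044 and 0.013), where it called 6.39% of all genes. *Jup* and *Pkp2* were higher in all 3 *PRELP*-/- libraries than in any *OMD*-/- library, 2 of 9 members against 15.1% of all genes (6.38% higher and 8.72% lower). Their log2 differences were 0.17 (95% interval -0.17 to 0.51) and 0.25 (-0.09 to 0.59). The intervals were wider for the genes that set *PRELP*-/- replicate 1 apart, from -0.99 to 0.52 for *Dsg2* and from -0.14 to 1.73 for *Perp*. Without that library *Dsg2* differed by 0.06 and *Perp* by 0.21 (edgeR adjusted p = 0.84 and 0.70). All 9 intervals took in 0.33, the size of the *Dsg2* difference between *OMD*-/- and *WT*.

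Plakophilins can stand in for each other, so their proportions at the RNA level were compared between libraries. *Pkp3* made up most of the summed plakophilin RPKM in every library, from 58.8% in *WT* replicate 1 to 70.2% in *OMD*-/- replicate 2. *Pkp1* took 30.1% and 25.7% in *WT* replicates 1 and 2 and 18.6% and 17.6% in replicates 3 and 4, a spread that took in all 6 knockout libraries except *OMD*-/- replicate 2, at 16.8%. *Pkp2*, the plakophilin of heart muscle and of simple epithelia, took 8.33% to 15.6% in *WT* and 9.14% to 13.0% in the knockouts. The proportions in the knockout libraries were thus within or next to the *WT* spread. The ratio of *Dsp* to *Jup* RPKM was 0.872, 0.796, 0.637 and 0.602 in *WT* and 0.704 to 0.780 in 5 of the knockout libraries, and 0.383 in *PRELP*-/- replicate 1.

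**Figure D5:**
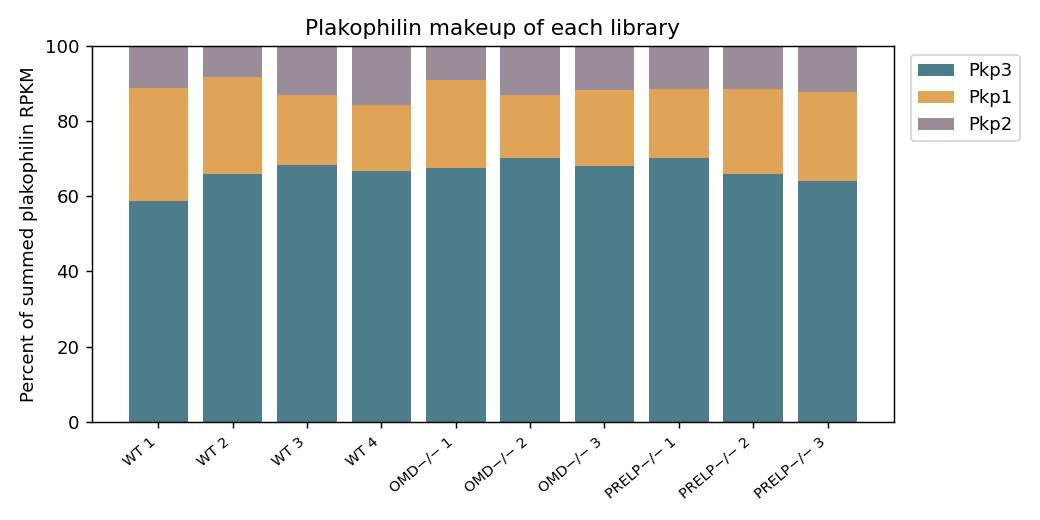
Share of each plakophilin in the summed plakophilin RPKM (y axis, percent) of each library (x axis). *Pkp3* took from 58.8% to 70.2%, and the share of *Pkp1* lay between 17.6% and 30.1% in *WT*.

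*Dsp* and *Jup* are the members for which a promoter sequence was at hand (2 of 10 matched by symbol in RefSeq, build GRCm38.p6), and they are shown because both had the split between *WT* pairs. The 250 bases before each start site are given 5′ to 3′ on the strand of the gene, with each GC box (GGGCGG or its reverse complement CCGCCC, the letters bound by Sp1-type factors) in capitals. *Dsp* lies at chr13:38151044-38151293 on the plus strand, and *Jup* at chr11:100397791-100398040 on the minus strand.
Dsp: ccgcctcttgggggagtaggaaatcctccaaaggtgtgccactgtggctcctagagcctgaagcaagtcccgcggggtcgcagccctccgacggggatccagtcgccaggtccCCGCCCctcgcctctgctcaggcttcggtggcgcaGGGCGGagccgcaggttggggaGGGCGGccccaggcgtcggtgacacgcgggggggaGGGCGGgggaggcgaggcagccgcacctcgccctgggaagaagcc
Jup: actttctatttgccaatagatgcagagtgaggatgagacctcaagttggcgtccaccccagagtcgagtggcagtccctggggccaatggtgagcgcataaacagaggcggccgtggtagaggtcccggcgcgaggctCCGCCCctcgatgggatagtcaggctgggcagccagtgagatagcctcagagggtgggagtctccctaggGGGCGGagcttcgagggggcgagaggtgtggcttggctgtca
*Dsp* held 4 GC boxes in a stretch of 72.4% GC, and *Jup* held 2 in a stretch of 62.0% GC, where 33.0% of 32544 promoter windows of this length hold at least 1. Neither window held the E-box CAGGTG or its reverse complement (17.3% of windows) or the Grainyhead-type letters AACCNGTT on either strand (1.79%). These matches describe letters only.

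Of 9 other desmosome genes, 0 were called in *OMD*-/-, and 0 had an unadjusted p under 0.05. The plakin genes *Ppl* and *Evpl*, whose products line the cell envelope, *Pkp4* and *Cdsn* were tested, at -0.15, 0.10, -0.15 and -0.46 on the log2 scale (edgeR adjusted p = 0.40, 0.44, 0.27 and 0.53), and 5 others, among them *Dsg1a*, *Dsg1b* and *Dsc1*, were too low. Of 12 keratins, the filaments that desmosomes anchor, 10 were tested and 2 rose, *Krt15* (0.40, edgeR adjusted p = 0.033) and *Krt18* (0.35, edgeR adjusted p = 0.031). That share was below the 29.4% of all genes called. The median over the keratins was 0.25, with 9 of 10 on the higher side. Over the epithelial reference genes it was 0.22, with 12 of 13 on the higher side. *Krt7*, *Krt8*, *Krt18* and *Krt19* are in both lists, so these are not separate readings. Without *OMD*-/- replicate 1 the medians were 0.15 and 0.09, with 8 of 11 keratins and 8 of 13 reference genes on the higher side.

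Hemidesmosome genes, which attach basal cells to the basement membrane, moved in both directions in *OMD*-/-. The laminin chain *Lamb3* (0.36, edgeR adjusted p = 0.018) and the integrin *Itga6* (0.37, edgeR adjusted p = 0.022) rose. The plakin gene *Dst* fell (-0.76, edgeR adjusted p = 0.0014). Of 5 genes whose products act on desmosomes, the kinase genes *Gsk3b* (0.37, edgeR adjusted p = 0.028) and *Prkca* (0.48, edgeR adjusted p = 0.0499) rose, the latter barely past the threshold. With 5 and 13 genes, the calls in this list and the next can be read only beside the 29.4% of all genes. Among 13 transcription factors that set epithelial state, the Grainyhead genes *Grhl1* (-0.31, edgeR adjusted p = 0.0088) and *Grhl2* (-0.39, edgeR adjusted p = 0.049) and *Klf5* (-0.29, edgeR adjusted p = 0.022) fell. The repressors *Zeb1* (0.43, edgeR adjusted p = 0.024) and *Zeb2* (0.53, edgeR adjusted p = 0.0081), which are known from mesenchymal cells, rose. Fibroblast markers, mostly collagen transcripts by their sum, were higher in the same libraries (5 of 8 called, median 0.99). Their part in the *Zeb1* and *Zeb2* values was not tested. Of the 12 genes named in these lists, *Dst*, *Grhl1* and *Zeb2* were called against either *WT* pair and without *OMD*-/- replicate 1. Against *WT* replicates 1 and 2, a fit that called 26.3% of all genes, *Krt15*, *Lamb3*, *Itga6*, *Gsk3b*, *Prkca* and *Zeb1* were no longer called (0.20 to 0.36, edgeR adjusted p from 0.061 to 0.16). Against *WT* replicates 3 and 4, where 39.8% were, *Krt18*, *Grhl2* and *Klf5* were not (0.31, -0.12 and -0.23, edgeR adjusted p = 0.098, 0.25 and 0.053). Without *OMD*-/- replicate 1, where 25.5% were, *Krt15*, *Prkca*, *Grhl2* and *Klf5* were not (0.25, 0.43, -0.39 and -0.26, edgeR adjusted p = 0.080, 0.14, 0.12 and 0.051).

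In *PRELP*-/-, 0 genes of these lists were called, where 7.29% of all genes were. The same genes had log2 fold changes of 0.51 for *Krt15*, 0.68 for *Krt18*, -1.19 for *Dst*, -0.54 for *Grhl1* and -0.73 for *Grhl2* (edgeR adjusted p from 0.068 to 0.17), and values of 0.05 and 0.08 for *Zeb1* and *Zeb2*. Without replicate 1 the values were 0.38, 0.44, -0.82, -0.27 and -0.41 in the same order, and 0.28 and 0.40 for *Zeb1* and *Zeb2*. All of these but *Grhl2* and *Zeb1* then passed the threshold (edgeR adjusted p from 0.00079 to 0.034, and 0.11 and 0.095 for the exceptions), as did 4 of 11 keratins, 2 of 9 hemidesmosome genes, 1 of 5 genes acting on desmosomes and 3 of 13 transcription factors, where 22.2% of all genes were called. In the edgeR fit with all libraries, 5 keratins of 11, 1 hemidesmosome gene of 9 and 3 transcription factors of 13 had an unadjusted p under 0.05. The members' mean profile over the 10 libraries, as log2 CPM centred per gene and averaged over the 9 tested genes, was nearly flat, from -0.11 to 0.10. The genes outside the list whose profile was most like it, of 14468 with a mean of at least 1 CPM, were *Foxa1* (Pearson r = 0.85, Spearman rho = 0.75), *Cdyl* (0.84 and 0.81), *Epb41l5* (0.82 and 0.85), *Aldh6a1* (0.79 and 0.84) and *Klf5* (0.78 and 0.82). They were picked as the highest of many over libraries that share groups, so the values carry no test. The mean profile does not stand for a shared course of the members. Over the 9 libraries without *PRELP*-/- replicate 1, 20 of 36 pairs of tested members correlated positively (Pearson r from -0.87 to 0.95).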

How the data were processed

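Poly(A) RNA of mouse bladder was sequenced in 10 samples with a strand-marking kit, and the authors deposited 1 table of raw gene counts (featureCounts) per library. The file headers name HISAT2 and the submitters' processing notes name STAR 2.5.2b, featureCounts, DESeq2 and the builds GRCm38 and hg38; which aligner made the counts, the strand setting and the use of molecular identifiers are not given in the sources used here. The authors' own comparison tables (fold changes and p-values) were not used. Gene IDs were matched to GENCODE vM21 (55536 of 55536).

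The deposited counts were filtered (filterByExpr), TMM-normalised and tested with edgeR 4.0.16 (quasi-likelihood, robust, R 4.3.3) per pair of groups, with Benjamini-Hochberg adjustment over all genes tested. Alternatives used DESeq2 1.42.0, limma 3.58.1 and the settings given below. The pipeline was tested on simulated data. Named genes were all 10 members, list genes past an adjusted p of 0.05 in a knockout, and the 5 most like profiles; 1 list gene is not reported here. The members and lists were chosen with earlier results of these data known. *Dsp* shares 499 and *Dsg2* 330 exonic bases with a gene on the opposite strand, at a mean of 0.285 and 0.113 CPM. Replicate numbers occur in every group. Deviations from the group means correlated between same-numbered *PRELP*-/- and *OMD*-/- libraries in all 3 pairs (0.30, 0.18 and 0.15), the criterion for pairing. Replicates 2 and 3 correlated as much across numbers (0.16 and 0.20), so the numbers do not single out pairs, and no label gives a pairing.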

Additional observations from a re-analysis of the deposited data

How the results depend on the processing

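Where a count or direction moved with the setting, the cause was not tested. For *OMD*-/- against *WT* (1 of 9), 4 were called by limma-voom with sample quality weights, 3 of 10 without a filter on low counts (*Dsc3* among them), 0 with all 3 groups in 1 fit, 6 with Y-linked expression as a covariate and 3 with epithelial reference scaling, and 1 to 3 with a library left out. Settings chosen after seeing the data called 2 against *WT* replicates 1 and 2 only, 5 against *WT* replicates 3 and 4 only, and 3 and 7 in the same order with *OMD*-/- replicates 2 and 3 only. The replicate block called 1, *Pkp1* (-0.61, edgeR adjusted p = 0.024), and not *Dsg2* (0.32, edgeR adjusted p = 0.054). Same-numbered *OMD*-/- and *WT* libraries did not deviate together (r = 0.04, -0.04 and 0.02), and *PRELP*-/- and *WT* did so in 1 of 3 pairs (-0.06, 0.14 and -0.10), so these share only a number. For *PRELP*-/- against *WT* (0 of 9), limma-voom called 5, and leave-one-out fits 0 to 2. Chosen after seeing the data, epithelial reference scaling with *PRELP*-/- replicates 2 and 3 called 1, and those 2 libraries called 8 against *WT* replicates 3 and 4 and 5 against *WT* replicates 1 and 2. For *PRELP*-/- against *OMD*-/- (0 of 9), limma-voom called 2. The replicate block called 0 in both of these comparisons. RLE size factors and DESeq2 changed no count.

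Directions turned in 54 of 486 single-gene values, none of them past the threshold in the main test. Against *WT* in *OMD*-/-, limma-voom gave -0.11 for *Perp*, and epithelial scaling -0.24 for *Perp* and -0.18 for *Dsc2*. *WT* replicates 1 and 2 gave -0.084 for *Dsp*, 0.31 for *Dsg3* and -0.035 for *Dsc2*, and with *OMD*-/- replicates 2 and 3 they gave -0.11, 0.60 and -0.091, and -0.091 for *Perp*. *WT* replicates 3 and 4 gave -0.040 for *Perp*, and -0.21 with *OMD*-/- replicates 2 and 3. Leave-one-out ranges were -0.0028 to 0.10 for *Dsc2* and -0.14 to 0.11 for *Perp*.

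Against *WT* in *PRELP*-/-, epithelial scaling gave -0.11 for *Dsp* and -0.25 for *Dsg2*, and -0.061 for *Perp* with replicates 2 and 3. The replicate block gave -0.024 for *Dsg2*. limma-voom gave 0.10 for *Pkp1* and 0.30 for *Dsc2*. *Dsc2*, at -0.0058 in the main test, was 0.011 with RLE, 0.014 with DESeq2, 0.015 without a filter and 0.0089 with all 3 groups. *WT* replicates 1 and 2 gave -0.14 for *Dsp* and 0.075 for *Pkp2*, and with *PRELP*-/- replicates 2 and 3 they gave 0.10 for *Pkp2* and 0.16 for *Dsc2*. *WT* replicates 3 and 4 gave 0.19 for *Pkp1* and 0.10 for *Dsc2*, and 0.31 and 0.36 with *PRELP*-/- replicates 2 and 3. Leave-one-out ranges were -0.11 to 0.40 for *Dsg2* and -0.19 to 0.27 for *Dsc2*.

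Between the knockouts, limma-voom gave 0.24 for *Dsp*, 0.058 for *Dsg2* and 0.24 for *Dsc2*. The Y-linked covariate gave 0.30, 0.18 and 0.21 for them, 0.0069 for *Dsg3* and -0.20 for *Perp*. Epithelial scaling gave -0.0060 for *Pkp3*, and with *PRELP*-/- replicates 2 and 3 0.18 for *Dsp*, 0.0093 for *Dsg2* and 0.16 for *Dsc2*. Leave-one-out ranges were -0.21 to 0.23 for *Dsp*, -0.43 to 0.065 for *Dsg2*, -0.79 to 0.00032 for *Dsg3* and -0.25 to 0.20 for *Dsc2*. Depth limits *Dsg3* and *Dsc3* most, with at most 39 and 17 counts in a library.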
